A study of Mus musculus with 60 samples.

Results

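Potassium channel subunits were followed in RNA of the mouse hippocampus after injection of melanoma cells. They were chosen by symbol: all gene symbols made of Kcn, a letter from a to v and a digit, with a mean of at least 1 TPM (a gene's reads scaled by its length and by the library's total) over all 60 libraries. Kcnj8, Kcnj10, Kcnj13, Kcne2, Kcnq1ot1 and symbols ending in os, ps or Rik were left out. Of 83 symbols of this form in a table of 47643 symbols, 18 were below that mean, 5 at or above it were left out by name or ending, and 60 remained. The lowest that remained were Kcna3 at 1.57, Kcnh6 at 1.72 and Kcnh5 at 1.78 TPM, and the highest below the limit were Kcnk12 at 0.935, Kcnk5 at 0.629 and Kcnj5 at 0.547 TPM. All 60 also passed the filter of the test, which kept genes that reached 1 TPM in 4 or more libraries.

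The libraries came from hippocampi of female mice, 2 months old per the labels, that had received melanoma cells labelled cachectic (CAC), melanoma cells labelled non-cachectic (NCAC), or a mock injection (Con). Cachexia is the wasting of muscle and fat in cancer. CAC was sequenced in 4, 5, 5 and 7 replicates at 2, 4, 6 and 8 wk after injection, NCAC in 5, 5, 4 and 5, and Con in 5 at each week. The sample labels give the strain as C57BL6/J for every group while the design text names NCI Ath/nude mice, and the extraction protocol mentions LLC cells, which belong to none of these groups. The labels name neither the melanoma lines nor any genetic alteration of the hosts. They call the samples biological replicates but do not state that every library is from its own mouse, and the p-values then rest on the spread of these samples, which may in part be technical.

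Potassium channels let potassium leave or enter a cell along its electrochemical gradient, and so set the resting potential, end the action potential and limit repetitive firing. Voltage-gated Kv subunits assemble as tetramers within a subfamily, tandem-pore subunits carry background current, inward rectifiers hold the potential near rest or respond to G proteins and ATP, and calcium- or sodium-activated channels follow the ions that enter during activity. In the hippocampus the Kv7 channels give the M-current, which muscarinic receptors close, and Kv4 channels give the A-type current of pyramidal cell dendrites.

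The libraries held 32388197 to 42047145 reads, recovered from the steps of the TPM values. A set of 4 libraries stood apart by marker lists of other tissue. CAC 2 wk replicate 1, CAC 4 wk replicate 1 and Con 4 wk replicate 2 were rich in striatum-enriched RNA (the first also in thalamus-enriched RNA), and CAC 8 wk replicate 3 was rich in erythrocyte RNA. Choroid plexus markers flagged 0 libraries by the same rule, yet their sum ran from 58.3 to 10900 TPM between libraries. At 4 wk it was 195 to 1670 TPM in CAC and 2580 to 5060 in Con, without overlap, with 0 of 9 markers called (median -1.77). At 8 wk it overlapped, at 134 to 5640 TPM in CAC and 628 to 6900 in Con. The part of choroid plexus in the channel differences was not tested. In bulk tissue, fewer cells of a type and less RNA per cell cannot be told apart, which holds for each difference given here.

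The channel genes had a median level of 22.1 TPM against 18.6 TPM over all 15608 genes tested. Among the abundant ones were Kcnj3 (GIRK1, a G protein-gated inward rectifier) at 111 TPM, the M-channel subunit Kcnq3 at 95 TPM, the A-type subunit Kcnd2 (Kv4.2) at 93 TPM and the GIRK subunit Kcnj9 at 87.3 TPM. By subfamily, the 9 inward rectifiers summed to 376 TPM, or 19% of the channel total, and the 4 Kv7 genes to 329 TPM, or 16.7%. The 4 Kv3 genes, subunits of fast-spiking neurons, summed to 268 TPM. The 6 Kv1 genes summed to 194 TPM, led by the axonal subunit Kcna2 at 76.5 TPM. The 8 tandem-pore genes summed to 176 TPM, led by Kcnk1 (TWIK-1) at 75.8 TPM.

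Lower sums came from the other subfamilies. The 9 modulatory Kv genes, whose subunits are silent alone and alter Kv2 channels, summed to 165 TPM, led by Kcnv1 at 38.6 TPM, and the 3 Kv4 genes to 154 TPM. The 7 genes of the EAG, ERG and ELK group summed to 138 TPM, led by the ELK channel Kcnh3 at 67.2 TPM. The calcium-activated SK genes summed to 50 TPM, led by Kcnn2 at 24.9 TPM, and the Slack-type genes to 49.7 TPM, led by the sodium-activated Kcnt1 at 28.8 TPM. The single-pass MinK-related subunits were scarcest, with Kcne1l at 4.44 and Kcne4 at 2 TPM. The spread between libraries of a group was a little wider for channel genes than for all genes, with a median SD of 0.181 against 0.153 on the log2 scale. The summed channel RNA was 1970 ± 74.2 TPM in CAC (SD, n = 7), 1900 ± 18.7 in NCAC (n = 5) and 1880 ± 50.7 in Con (n = 5) at 8 wk, and 1800 to 2190 TPM in single libraries over all weeks.

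**Figure D1:**
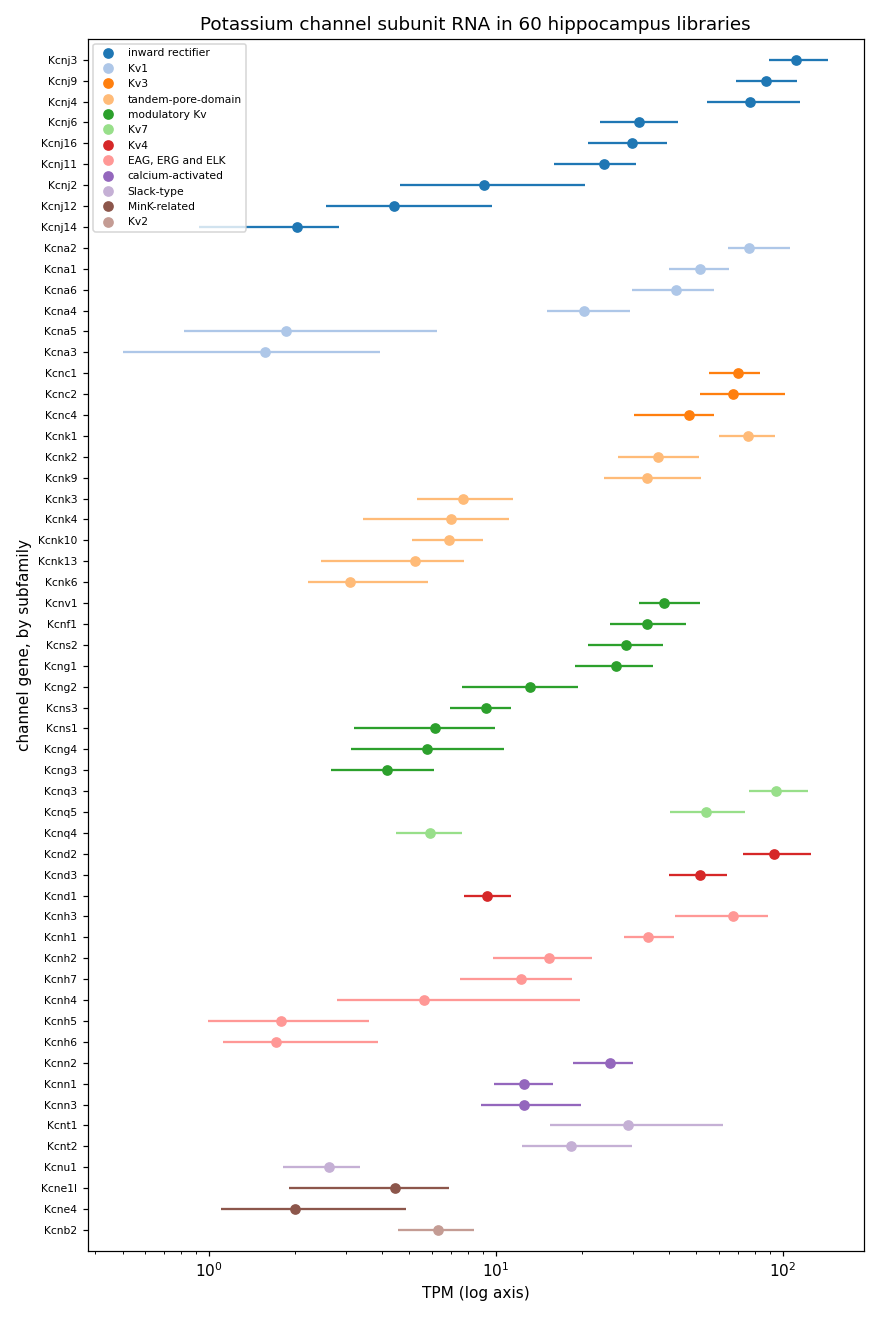
TPM of channel genes on a log axis, grouped by subfamily. Points are means over 60 libraries and lines run from the lowest to the highest library, and the means shown run from 111 TPM for Kcnj3 down to 1.57 TPM for Kcna3.

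The genes called between CAC and Con at 8 wk were Kcne1l and Kcnk13, which were lower, and Kcnk2, Kcnq3 and Kcnq5, which were higher. Promoter windows of 300 bases, from 250 bases before to 50 after the annotated start, are shown for the 4 of these 5 with an entry in RefSeq (GRCm38.p6), as the sequence context of the genes that moved. They are Kcne1l at chrX:142306149-142306448, minus strand, Kcnk13 at chr12:99964249-99964548, plus strand, Kcnk2 at chr1:189402224-189402523, minus strand, and Kcnq5 at chr1:21962601-21962900, minus strand. For Kcnk2, 4 windows were listed and for Kcnq5 2, of which the first is shown. Capitals mark matches, on either strand, to 5 motifs chosen after the values were seen.
Kcne1l: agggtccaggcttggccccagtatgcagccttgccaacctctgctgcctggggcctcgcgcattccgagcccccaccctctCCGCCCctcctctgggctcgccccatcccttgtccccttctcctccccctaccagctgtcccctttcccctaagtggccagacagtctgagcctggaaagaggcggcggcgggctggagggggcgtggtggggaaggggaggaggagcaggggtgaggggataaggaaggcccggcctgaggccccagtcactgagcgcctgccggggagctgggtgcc
Kcnk13: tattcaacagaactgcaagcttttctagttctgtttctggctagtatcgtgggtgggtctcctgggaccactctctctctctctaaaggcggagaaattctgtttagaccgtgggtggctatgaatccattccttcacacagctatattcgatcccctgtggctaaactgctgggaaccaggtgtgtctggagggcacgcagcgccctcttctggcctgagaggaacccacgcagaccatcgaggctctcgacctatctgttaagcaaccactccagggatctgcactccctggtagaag
Kcnk2: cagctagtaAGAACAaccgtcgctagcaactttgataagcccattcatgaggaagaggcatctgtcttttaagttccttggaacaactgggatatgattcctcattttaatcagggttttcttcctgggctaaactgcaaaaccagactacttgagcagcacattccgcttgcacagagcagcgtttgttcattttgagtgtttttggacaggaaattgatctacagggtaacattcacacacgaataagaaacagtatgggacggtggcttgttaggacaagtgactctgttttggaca
Kcnq5: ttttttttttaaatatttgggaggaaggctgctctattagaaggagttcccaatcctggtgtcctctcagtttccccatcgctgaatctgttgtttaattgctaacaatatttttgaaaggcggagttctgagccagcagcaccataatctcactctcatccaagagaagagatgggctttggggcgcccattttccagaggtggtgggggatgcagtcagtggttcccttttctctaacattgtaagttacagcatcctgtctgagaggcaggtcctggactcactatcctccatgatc
The motifs searched were the TATA box by the letters TATAAA, the GC box by GGGCGG, the cAMP response element by TGACGTCA, the E-box by CACGTG, and the core hexamer bound by the glucocorticoid receptor by AGAACA. None overlapped another in these windows. Kcne1l held 1 GC box, a match present in 35.9% of 27025 mouse promoter windows of this length, and Kcnk2 held 1 AGAACA, present in 19% of them. No window of the 4 held the TATA box, the cAMP response element or the E-box, which stood in 14.2%, 1.88% and 7.24% of all windows. The GC content was 69.7% for Kcne1l, 52.7% for Kcnk13, 46% for Kcnq5 and 43% for Kcnk2, beside a median of 52.7% over all windows. Only 39 of the 60 channel genes have a window in the table, so no share over the channel genes is given.

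At 8 wk, limma with Benjamini-Hochberg adjustment over all genes called 5 of 60 channel genes at 0.05 in CAC against Con (8.33%), with 3 up and 2 down. Of all genes tested 14.5% were called, 11.3% higher and 3.2% lower. That split depended on scaling: 1757 genes were higher and 499 lower as deposited, against 679 and 730 with median-of-ratios scaling, where 0 channel genes were higher and 3 lower. The median difference was 0.018 (log2) over the channel genes and 0.048 over all genes. The changes fell in 3 subfamilies: MinK-related, tandem-pore and Kv7.

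Kcne1l (now Kcne5; chrX:142304752-142306294), a single-pass subunit that restrains Kv channels in heterologous cells, was lower in CAC. Its TPM lay between 2.62 and 4.32 in the 7 CAC libraries at 8 wk, with a median of 3.3, against 5.76, 5.8, 6.49, 6.71 and 6.79 in Con. Every CAC library was below every Con library. The log2 difference was -0.86 ± 0.17 SE, a ratio of 0.552, with a limma adjusted p of 0.0023. It was the only channel gene with no overlap in that direction, 1 of 60 or 1.67%, against 2.29% of all genes. The call held in all 12 alternative settings and in all 12 leave-one-out fits, where adjusted p reached at most 0.0132. Kcne1l was highest in the erythrocyte-rich CAC replicate 3 among the CAC libraries, and without the libraries rich in other tissue the difference was -0.92 with an adjusted p of 0.000455.

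Kcnk13 (THIK-1; chr12:99964499-100062682), a tandem-pore channel of mouse microglia that sets their resting potential, was also lower. It stood at 2.45 to 4.6 TPM in CAC with a median of 3.59, against 4.01, 5.07, 5.64, 6.52 and 6.69 TPM in Con. The groups overlapped only through the lowest Con library, which lay below 2 CAC libraries. The log2 difference was -0.58 ± 0.16, with an adjusted p of 0.0123. It held in all 12 leave-one-out fits, with an adjusted p up to 0.0495, and in 10 of 12 alternative settings. It was lost with the replicate block (-0.50, adjusted p = 0.0583) and with the block and the GC and length trend removed (0.0743). The 5 microglial markers, none at 0 in a library, summed to 275 to 375 TPM in CAC and 317 to 406 in Con, with 0 of 5 called and a median difference of -0.25. The 6 oligodendrocyte markers summed to 1150 to 2180 TPM in CAC and 1240 to 2030 in Con, with 0 of 6 called and a median of -0.24. The part of either cell type in the Kcnk13 difference was not tested.

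Kcnq3 and Kcnq5, 2 of the 4 Kv7 genes, were higher in CAC. Kcnq3 (chr15:65986387-66286642), an M-channel subunit, stood at 85 to 101 TPM in CAC with a median of 96.4, against 76, 76.4, 77.3, 78.2 and 83.1 TPM in Con, with no overlap. Its log2 difference was 0.26 ± 0.08 (adjusted p = 0.0219). Kcnq5 (chr1:21398403-21961942), another M-channel subunit, had 49.1 to 59.7 TPM in CAC with a median of 57.8, against 40.6, 41.9, 46.7, 47.7 and 52.8 in Con. Only the lowest 2 CAC libraries lay below the highest Con library, and the difference was 0.29 ± 0.08 (adjusted p = 0.0147).

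Kcnk2 (TREK-1; chr1:189207930-189402273), a tandem-pore channel opened by stretch, lipids and volatile anaesthetics, was higher as well. It stood at 29.4 to 40.9 TPM in CAC with a median of 36.9, against 26.6, 27.9, 29, 30.3 and 30.4 TPM in Con. A single CAC library lay within the Con range, and the difference was 0.31 ± 0.09 (adjusted p = 0.0243). The Kcnk2 call was lost without CAC replicate 2 or 6 or Con replicate 3 or 5 (adjusted p up to 0.0642), that of Kcnq3 without CAC replicate 2 or Con replicate 1 (up to 0.0559) and that of Kcnq5 without Con replicate 1 or 3 (up to 0.0586). Beside these 3 higher genes, the summed neuronal markers were 5440 to 5810 TPM in CAC and 5050 to 5560 in Con. Of these 2 of 6 were called higher, with a median difference of 0.09. The CA1 pyramidal markers summed to 478 to 559 TPM in CAC and 456 to 492 in Con, with 1 of 5 called higher (median 0.12). The interneuron markers summed to 803 to 1020 TPM in CAC and 1050 to 1090 in Con. Yet 0 of these 7 were called, and their median difference was 0.11, opposite in sign to the sums. Of the CA2 and CA3 markers 1 of 6 was called higher (median 0.24), and of the dentate granule markers 0 of 6 (median 0). The part of these cell types was not tested.

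Libraries also differed in how the level depended on gene length. Levels were taken relative to each gene's mean over the 60 libraries, with GC content in the same fit. On this scale the log2 level of a library at 8 wk changed per doubling of length by -0.054 to 0.032 in CAC and by -0.104 to -0.0894 in Con, without overlap. Kcnq3, Kcnq5 and Kcnk2 have counted lengths of 11527, 7689 and 4943 bases, while Kcnk13 and Kcne1l have 3112 and 1543. With the trend on length and GC content removed from each library, Kcnq3 was 0.15 (adjusted p = 0.0801), Kcnq5 0.21 (0.073) and Kcnk2 0.25 (0.0684), so that these 3 calls were lost. Kcnk13 kept -0.58 (0.0122) and Kcne1l -0.77 (0.00153). Median-of-ratios scaling also ended the 3 higher calls, with adjusted p-values of 0.0659, 0.0649 and 0.0777 in the same order, and so did a count test on the recovered reads (limma voom), with 0.0628, 0.0609 and 0.0766. Kcnk2 overlaps A430027H14Rik by 277 exonic bases and Kcnq5 overlaps Gm26580 by 167, both on the opposite strand. The libraries were stranded per the labels, but the use of strand in counting is not stated.

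**Figure D2:**
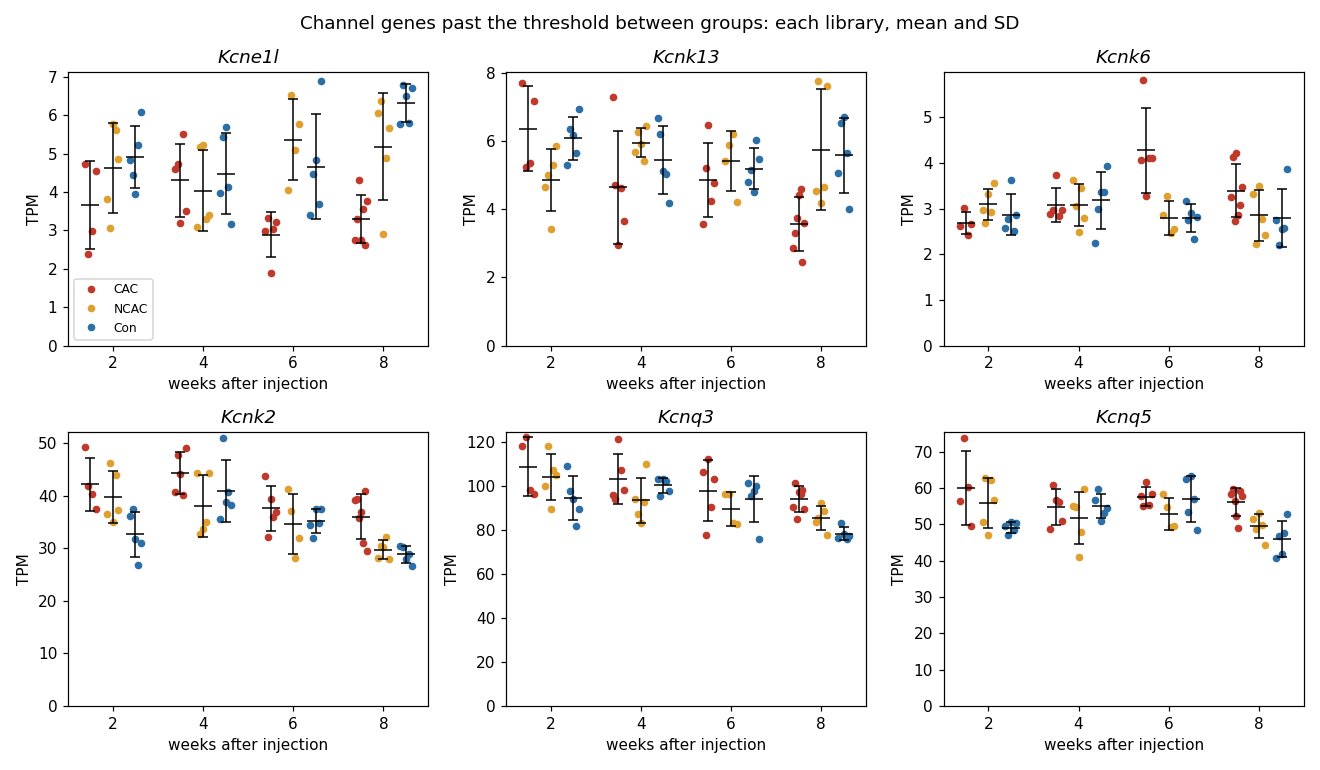
TPM in each library at 2, 4, 6 and 8 wk for 6 channel genes that passed the threshold between groups, with CAC, NCAC and Con from left to right within a week. Bars are the mean and SD of a group, and at 8 wk the Kcne1l values of CAC, up to 4.32 TPM, lie below those of Con, from 5.76 TPM.

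In the other subfamilies limma called 0 genes at 8 wk against Con, and over all 60 genes 12 had an unadjusted p under 0.05. The share of all genes at that unadjusted threshold is not given, here or below. Such counts are therefore no result about the channel genes in particular. The modulatory gene Kcng1 was called lower by voom (-0.32, adjusted p = 0.0257) and with median-of-ratios scaling (-0.32, 0.033). Non-overlap upwards was seen for 4 of 60 genes, or 6.67%, against 4.72% of all genes tested, and among these were Kcnq3, Kcna5 and Kcnt2. Kcna5 (Kv1.5) had 1.56 to 3.32 TPM in CAC with a median of 2.61, against 0.972, 1.03, 1.18, 1.35 and 1.45 in Con, a difference of 0.74 ± 0.28 (adjusted p = 0.0584). Kcnt2 (Slick), a sodium-activated channel, averaged 16.2 ± 0.75 TPM in CAC and 13.3 ± 0.838 in Con (SD, n = 7 and 5), a difference of 0.27 ± 0.10 (adjusted p = 0.0615).

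In other subfamilies, the gene with the smallest p had a difference of 0.20 ± 0.08 for Kcnd2 (adjusted p = 0.0572) and -0.26 ± 0.10 for the modulatory Kcng1 (0.0672). It was 0.15 ± 0.08 for the Kv3 gene Kcnc2 (0.209), -0.18 ± 0.11 for the SK3 gene Kcnn3 (0.238), -0.15 ± 0.10 for the inward rectifier Kcnj16 (0.277) and 0.15 ± 0.13 for the ERG gene Kcnh6 (0.464). Without the libraries rich in other tissue, 8 channel genes (13.3%) and 21.4% of all genes passed in CAC against Con. Among the 8 were Kcna5 (0.81, adjusted p = 0.00647) and Kcnd2 (0.22, 0.0418).

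**Figure D3:**
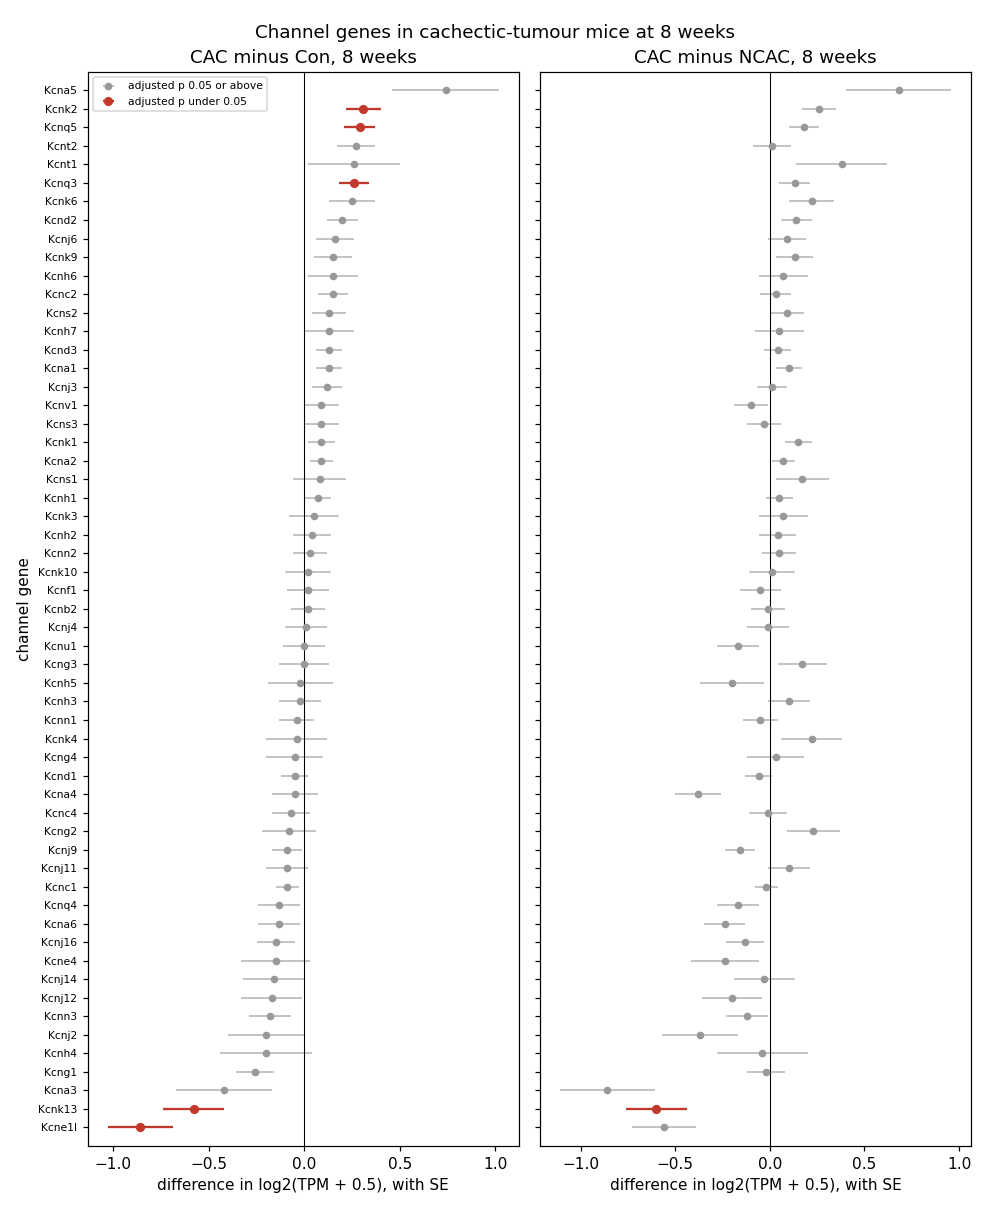
Differences in log2(TPM + 0.5) with their SE for channel genes at 8 wk, CAC minus Con on the left and CAC minus NCAC on the right, in the same order of genes. Red points passed an adjusted p of 0.05, 5 on the left and 1 on the right.

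Between the tumour groups at 8 wk, 1 of 60 channel genes passed, against 1.83% of all genes, 1.26% higher and 0.564% lower. Kcnk13 was lower in CAC, whose 7 libraries had 2.45 to 4.6 TPM, than in NCAC, with 4.19, 4.52, 4.64, 7.62 and 7.76 TPM. The groups overlapped at 4.19 to 4.6 TPM, and the difference was -0.60 ± 0.16 (limma adjusted p = 0.0324). The call was lost when CAC replicate 1, 2, 6 or 7 or NCAC replicate 2 or 5 was left out, with adjusted p-values up to 0.184. It was also lost with no filter on low genes (adjusted p = 0.0512), with the compared groups alone (0.135), and with the replicate block, alone (0.192) or with the GC and length trend removed (0.122). Without the libraries rich in other tissue 5 channel genes passed (8.33%), against 5.87% of all genes: Kcnk13 (-0.61, adjusted p = 0.0191), Kcne1l (-0.62, 0.0288), Kcna3 (-0.86, 0.0413) and Kcna4 (-0.40, 0.0326) were lower in CAC, and Kcna5 (0.75, 0.028) was higher. The microglial markers summed to 275 to 375 TPM in CAC and 322 to 364 in NCAC, and the oligodendrocyte markers to 1150 to 2180 in CAC and 1400 to 2700 in NCAC. Kcne1l was at -0.56 ± 0.17 (adjusted p = 0.0783), with 2.62 to 4.32 TPM in CAC and 2.91, 4.89, 5.66, 6.07 and 6.38 TPM in NCAC. The Kv1 gene Kcna3 was at -0.86 ± 0.25 (adjusted p = 0.0561) and Kcna4 at -0.38 ± 0.12 (0.0828), and Kcna4 showed no overlap, 1 of 60 or 1.67%, against 0.487% of all genes.

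Between NCAC and Con, limma called 0 channel genes and 0% of all genes tested at each of the 4 weeks. At an unadjusted p under 0.05 there were 2, 10, 0 and 4 channel genes at 2, 4, 6 and 8 wk, and voom called 0 at each. The 0% of all genes is at the adjusted threshold and cannot be set against these unadjusted counts. At 8 wk the smallest p-values belonged to Kcna4 (0.33 ± 0.13, adjusted p = 0.634), Kcnt2 (0.27 ± 0.11, 0.634) and Kcng1 (-0.24 ± 0.11, 0.634). Kcnt2 was 14.8 to 17.8 TPM in NCAC and 12.5 to 14.5 in Con without overlap, which 1.4% of all genes also showed upwards. At 2 wk the smallest p-values were those of Kcnk2 (0.29 ± 0.10, adjusted p = 0.43), Kcnq5 (0.18 ± 0.09, 0.511) and Kcng1 (0.20 ± 0.11, 0.522). At 4 wk they included those of Kcnn3 (-0.32 ± 0.12, 0.369) and Kcnd1 (-0.20 ± 0.08, 0.413), and at 6 wk those of Kcnh5 (0.35 ± 0.19), Kcnd1 (-0.13 ± 0.08) and Kcns1 (-0.24 ± 0.16), each with an adjusted p of 0.973. The median difference at 4 wk was -0.091 over the channel genes and -0.026 over all genes, and 13 of 60 channel genes were positive. The share of all genes that were positive is not given. The library slopes on gene length were -0.0956 to 0.0782 in NCAC and 0.0261 to 0.0944 in Con at 4 wk, and their part was not tested.

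At 6 wk the difference between the tumour groups held 2 of 60 channel genes, 1 in each direction, against 1.77% of all genes, 1.33% higher and 0.442% lower. These were 207 and 69 genes, against 158 and 107 with median-of-ratios scaling, where the channel genes also numbered 1 in each direction. Kcne1l was lower, with 1.9, 2.98, 3.03, 3.23 and 3.33 TPM in CAC against 4.04, 5.1, 5.77 and 6.53 in NCAC. These groups did not overlap, 1 of 60 or 1.67% downwards against 1.86% of all genes, and the difference was -0.79 ± 0.20 (adjusted p = 0.0315). Kcnk6 (TWIK-2; chr7:29221926-29232515), a tandem-pore channel known for potassium efflux in macrophages, was higher, with 3.27, 4.07, 4.11, 4.11 and 5.81 TPM in CAC against 2.47, 2.56, 2.86 and 3.28 in NCAC. Only the lowest CAC value fell just inside the NCAC range, and the difference was 0.52 ± 0.14 (adjusted p = 0.0354). The microglial markers summed to 329 to 624 TPM in CAC and 324 to 402 in NCAC, with 0 of 5 called and a median of 0.19. The endothelial markers summed to 190 to 228 TPM in CAC and 168 to 198 in NCAC, with 1 of 5 called higher (median 0.04). The part of either cell type in the Kcnk6 difference was not tested. Over 9 leave-one-out fits Kcne1l passed in 4 (without CAC replicate 2, 4 or 5 or NCAC replicate 1), with adjusted p up to 0.0956, and Kcnk6 in 2 (without CAC replicate 3 or NCAC replicate 2), with adjusted p up to 0.127.

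Against Con at 6 wk, 0 channel genes passed with limma (6 at an unadjusted p under 0.05), beside 0.25% of all genes, 0.179% higher and 0.0705% lower. Voom called 1 channel gene, and its share of all genes is not given. Kcnk6 in every CAC library was above every Con library, whose values were 2.34, 2.74, 2.81, 2.91 and 3.16 TPM, a difference of 0.52 ± 0.13 (adjusted p = 0.0521) that passed without CAC replicate 3 or Con replicate 1. Kcne1l was below every Con library, which had 3.4, 3.7, 4.46, 4.84 and 6.88 TPM, at -0.59 ± 0.19 (adjusted p = 0.166). Each was the only channel gene without overlap in its direction, 1.67% of 60, against 2.03% of all genes upwards and 0.589% downwards. Kcna1, an axonal Kv1 subunit, was at 0.23 ± 0.08 (0.174).

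At 4 wk, 0 channel genes passed in CAC against Con (11 at an unadjusted p under 0.05, 0 by voom, 0.801% of all genes called) or against NCAC (10 and 0, with 0.0128% of all genes). The TASK-3 gene Kcnk9, a pH-sensitive tandem-pore channel, came closest in both, at 0.38 ± 0.11 against Con (adjusted p = 0.0603) and 0.39 ± 0.11 against NCAC (0.123), comparisons that share the CAC libraries. It passed against NCAC when CAC replicate 5 was left out, and against Con when CAC replicate 1 or 5 was. It averaged 38.9 ± 10.4 TPM in CAC, 28.9 ± 2.64 in NCAC and 29.1 ± 3.82 in Con (SD, n = 5 each). CAC replicates 2, 4 and 3 had 48, 51.9 and 35.5 TPM. Replicates 5 and 1, at 28.9 and 30.4 TPM, lay within the Con range of 23.9 to 33.8. The modulatory gene Kcng4 was at -0.47 ± 0.16 (0.105) against Con and -0.38 ± 0.16 (0.284) against NCAC. Kcnh6 was at 0.37 ± 0.14 (0.231) against NCAC, with 3.88 TPM in CAC replicate 4 and 1.47 to 1.92 in the other CAC libraries.

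At 2 wk, 1 of 60 channel genes was called in CAC against Con, with 3.7% of all genes, 1.72% higher and 1.98% lower (268 and 309 genes, against 76 and 427 with median-of-ratios scaling, where 0 channel genes passed). Kcnk2 had 37.4, 40.4, 41.8 and 49.2 TPM in CAC against 26.9, 31.1, 31.7, 36.1 and 37.4 in Con. All CAC values exceeded the Con values before rounding, and such non-overlap was seen for 2 of 60 channel genes, or 3.33%, against 5.52% of all genes upwards. The difference was 0.37 ± 0.11 (adjusted p = 0.045). It passed in 3 of 12 alternative settings and was lost without the libraries rich in other tissue, of which CAC replicate 1, the highest for Kcnk2, is 1. It was also lost when CAC replicate 1, 2 or 4 or Con replicate 3, 4 or 5 was left out. The 577 calls over all genes rested on single libraries too, with 4 without CAC replicate 1, 33 without CAC replicate 2, 2 without Con replicate 4, 33 without Con replicate 5 and 1279 without CAC replicate 5, and 7 without the libraries rich in other tissue. Of the 60 channel genes 46 were positive, with a median of 0.108, beside 0.056 for all genes. The share of all genes that were positive is not given. The library slopes on gene length at 2 wk were 0.0332 to 0.146 in CAC and -0.0998 to 0.0205 in Con, without overlap. Their part in this shift was not tested. Against NCAC at 2 wk, limma and voom called 0 channel genes (5 at an unadjusted p under 0.05, 0% of all genes called), with the smallest p-values for Kcna3 (-0.70 ± 0.29, adjusted p = 0.68), the strong inward rectifier Kcnj2 (0.56 ± 0.23, 0.68) and Kcnd1 (0.17 ± 0.08, 0.691).

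Whether a difference between groups changed from week to week was tested as an interaction between 8 and 2 wk. By limma 0 channel genes passed in the CAC-Con, CAC-NCAC and NCAC-Con change, beside 0.00641%, 0.237% and 0% of all genes. With an unadjusted p under 0.05 there were 5, 7 and 2 channel genes. Voom called 0, 1 and 0, and its shares of all genes are not given. Kcnk13 had the smallest p for CAC against NCAC, at -0.96 ± 0.24 (adjusted p = 0.0583), and passed in 6 of 21 leave-one-out fits. It was followed by Kcna4 (-0.59 ± 0.18, 0.134) and Kcnj2 (-0.93 ± 0.31, 0.169). For CAC against Con the smallest p-values were those of Kcnn3 (-0.46 ± 0.16, 0.317), Kcnk13 (-0.63 ± 0.24, 0.345) and the Kv3 gene Kcnc1 (-0.22 ± 0.10, 0.439). For NCAC against Con they were those of Kcng1 (-0.44 ± 0.15), Kcna4 (0.39 ± 0.18) and Kcnk2 (-0.24 ± 0.14), each with an adjusted p of 0.999. A gene called at 8 wk and not at 2 wk is therefore not shown to have changed its difference.

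Between 8 and 2 wk within CAC, 21 of 60 channel genes (35%) were called, 7 higher and 14 lower at 8 wk, beside 31% of all genes, 10.8% higher and 20.1% lower. In NCAC 9 (15%) were called, 1 higher and 8 lower, beside 14% of all genes, 4.68% higher and 9.35% lower. In Con 7 (11.7%) were called, 3 higher and 4 lower, beside 9.67%, with 1.67% higher and 8% lower. With median-of-ratios scaling the channel calls were 8 higher and 10 lower in CAC, 3 and 3 in NCAC, and 4 and 2 in Con. Over all genes that scaling gave 2383 higher and 2076 lower in CAC, 1108 and 558 in NCAC, and 501 and 483 in Con, so that the excess of lower genes in the values as deposited was reversed in each group. In CAC, markers of other tissue and cell types were also lower at 8 wk: 9 of 9 thalamus markers (median -1.19), 5 of 6 oligodendrocyte (-0.85), 4 of 6 pericyte and smooth muscle (-0.58), 4 of 6 astrocyte (-0.27), 2 of 9 striatum (-1.26) and 2 of 5 microglial markers (-0.23). Other markers were higher in CAC at 8 wk: 1 of the 6 astrocyte markers, 2 of 6 neuronal (median 0.06), 2 of 5 CA1 (0.19) and 1 of 6 CA2 and CA3 markers (0.2). Both directions were seen for dentate granule markers (1 higher and 3 lower of 6, median -0.25) and interneuron markers (1 and 2 of 7, 0.12). The same held for endothelial markers (1 and 1 of 5, 0.03). In NCAC and Con 0 of the 9 thalamus and 9 striatum markers passed, and 0 and 1 of the 6 oligodendrocyte markers. Their part in the channel calls was not tested. The sign of the change was the same in all 3 groups for 41 of 60 genes, 28 lower and 13 higher at 8 wk. The groups share no libraries, and the changes of CAC and Con had a Pearson r of 0.69 across the channel genes, which are not independent replicates, beside 0.57 across all genes.

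Kcnd2, Kcnt2 and the modulatory Kcns1 (Kv9.1) were called in all 3 groups. Kcnt2 had 15.3 to 17.2 TPM in CAC at 8 wk with a median of 15.8, against 18.8, 19.8, 20.2 and 25.5 TPM at 2 wk, and 12.5, 12.8, 12.9, 13.9 and 14.5 TPM in Con at 8 wk against 17.6, 19.9, 21, 21.6 and 25.7 TPM at 2 wk. The weeks did not overlap in either group. The change was -0.36 ± 0.11 in CAC (adjusted p = 0.0102), -0.45 ± 0.11 in NCAC (0.0107) and -0.64 ± 0.11 in Con (0.0018). Kcnd2 fell by 0.30 ± 0.08 in CAC (0.00458), 0.39 ± 0.08 in NCAC (0.007) and 0.36 ± 0.08 in Con (0.00768). In CAC it had 81.5 to 96.3 TPM at 8 wk with a median of 85.5, against 95.7, 97.7, 119 and 125 TPM at 2 wk. Kcns1 rose by 0.50 ± 0.15 in CAC (0.0091), 0.43 ± 0.15 in NCAC (0.048) and 0.45 ± 0.15 in Con (0.0495).

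Called in more than 1 group were also Kcnh3, with 0.51 ± 0.11 in CAC (adjusted p = 0.00084) and 0.37 ± 0.11 in Con (0.0327), Kcnb2 (Kv2.2), with -0.30 ± 0.09 in CAC (0.0129) and -0.29 ± 0.10 in Con (0.0443), and Kcnq3, with -0.27 ± 0.08 in NCAC (0.028) and -0.26 ± 0.08 in Con (0.0398). Kcnq3 was at -0.20 ± 0.08 in CAC (0.0614), the group in which it was higher than in Con at 8 wk. Kcnh3 had 60.4 to 83.5 TPM in CAC at 8 wk with a median of 79.4, against 46.5, 50.2, 51.5 and 63.8 TPM at 2 wk. The lowest library at 8 wk was the erythrocyte-rich replicate 3, the only one within the range at 2 wk.

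Among the genes called in CAC, the fall of Kcnk13 was the steepest but for Kcnj2, at -0.76 ± 0.17 (adjusted p = 0.000784), with 2.45 to 4.6 TPM at 8 wk against 5.24, 5.36, 7.16 and 7.7 TPM at 2 wk and no overlap. In the same libraries the microglial markers summed to 275 to 375 TPM at 8 wk and 361 to 398 at 2 wk, and the oligodendrocyte markers to 1150 to 2180 at 8 wk and 2290 to 3140 at 2 wk. Their part was not tested. Kcnn3 (SK3), a small-conductance calcium-activated channel, fell by 0.59 ± 0.11 (adjusted p = 0.000197), with 8.88 to 11 TPM at 8 wk and a median of 10.4, against 13.9, 14.1, 15.4 and 19.8 TPM at 2 wk. Kcnh3, Kcnk13 and Kcnn3 kept their call in all 12 alternative settings and all 11 leave-one-out fits.

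The other genes lower in CAC at 8 wk than at 2 wk were Kcnj2 (-0.84 ± 0.22), the Kv1 genes Kcna6 (-0.44), Kcna4 (-0.37) and Kcna2 (-0.17), the EAG gene Kcnh5 (-0.55), the MinK-related Kcne4 (-0.57), and Kcnc2 (-0.26), Kcnd1 (-0.20) and the modulatory Kcns2 (-0.26). Other genes higher at 8 wk were the tandem-pore genes Kcnk9 (0.41) and Kcnk4 (0.55), the modulatory Kcng2 (0.56), and the Kv3 gene Kcnc4 (0.27). With the GC and length trend removed Kcng2 stood at -0.03 and Kcna2 at 0.02, the opposite sign. Adjusted p-values ran from 0.00311 for Kcnj2 to 0.0469 for Kcnc4. Kcnk4 shares 572 exonic bases with Catsperz on the same strand, so its value is uncertain. CAC 2 wk replicate 1 was rich in striatum and thalamus RNA, and without it 13 channel genes were called, 7 higher and 6 lower, beside 3283 of all genes against 4831 with it. Of the 21 genes 12 passed in both fits. Kcna2, Kcna4, Kcnc2, Kcnd1, Kcnd2, Kcne4, Kcnh5 and Kcns2, lower with this library, did not pass without it.

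In NCAC the other falls were those of Kcnk2 (-0.41 ± 0.10, adjusted p = 0.011), the ERG and EAG genes Kcnh7 (-0.47, 0.0286) and Kcnh1 (-0.23, 0.044), the modulatory Kcng3 (-0.44, 0.032) and Kcnk1 (-0.22, 0.0441). The count was 0 without replicate 2 of NCAC at 2 wk, where 1 of all genes passed, against 2189 with it. Without replicates 1, 2 and 5 at 8 wk it was 3, 5 and 4, with 1276, 1040 and 1085 of all genes. In Con, Kcng1 rose by 0.35 ± 0.11 (0.0296). The Con count was 1 to 4 without replicates 1, 2 or 3 at 2 wk or 1, 3, 4 or 5 at 8 wk, with 173 to 973 of all genes, and 9 without replicate 4 at 2 wk, with 2546 of all genes. With all libraries 1509 genes passed.

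GC content moved with these changes. The 20 channel genes of lowest GC content, 39.3% to 49.3%, were higher at 8 wk in 1 case in CAC, 5 in NCAC and 2 in Con, while the 20 of highest GC content, 57.2% to 65%, were higher in 11, 15 and 16. Their median changes were -0.22, -0.14 and -0.14 for low GC, and 0.07, 0.12 and 0.20 for high GC. With the trend on GC content and length removed from each library, the medians were -0.07, -0.01 and 0 for low GC and -0.10, -0.02 and 0.02 for high GC. The channel calls then numbered 10 in CAC, 1 in NCAC and 1 in Con (16.7%, 1.67% and 1.67%), beside 19.7%, 3.35% and 0.0798% of all genes. Kcnt2 passed in Con (-0.40, adjusted p = 0.0287) but not in CAC (-0.12, 0.32) or NCAC (-0.27, 0.0567). Kcnd2 passed in NCAC (-0.25, 0.0444) but not in CAC (-0.13, 0.223) or Con (-0.19, 0.307), and in CAC it was also lost without the libraries rich in other tissue (-0.22, 0.0761). Kcns1 was at 0.22 in CAC (0.185), 0.18 in NCAC (0.446) and 0.20 in Con (0.602). The r between CAC and Con across the channel genes was then 0.50. The part of GC content in these changes was not tested beyond this removal.

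**Figure D4:**
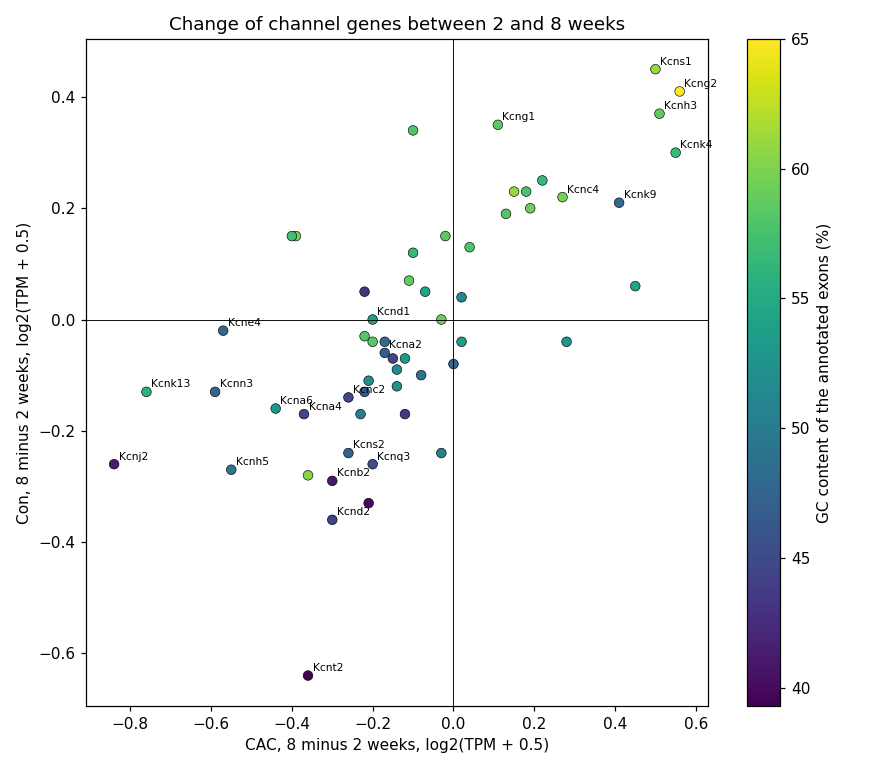
Change of channel genes between 2 and 8 wk, as differences in log2(TPM + 0.5) at 8 minus 2 wk, in CAC on the horizontal axis and Con on the vertical axis, coloured by GC content. Genes named in the plot were called in either group, and low-GC genes such as Kcnt2 lie at the lower left while GC-rich genes such as Kcns1 lie at the upper right.

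Kcnh4 and Kcna5, chosen after their values were seen, were high in the libraries rich in striatal RNA. Kcnh4, an ELK channel, had 14 TPM in CAC 2 wk replicate 1, 18.6 in CAC 4 wk replicate 1 and 19.7 in Con 4 wk replicate 2, against 2.8 to 7.12 TPM with a median of 4.97 in the other 57 libraries. In these libraries the 9 striatum markers summed to 1050, 1320 and 1340 TPM, and the next library had 233. Kcna5 had 4.59, 5.51 and 5.88 TPM in the same libraries, against 0.82 to 6.24 TPM with a median of 1.45 in the others. At 8 wk, where Kcna5 did not overlap between CAC and Con, the striatum markers summed to 61.8 to 104 TPM in CAC and 68.9 to 82.7 in Con.

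**Figure D5:**
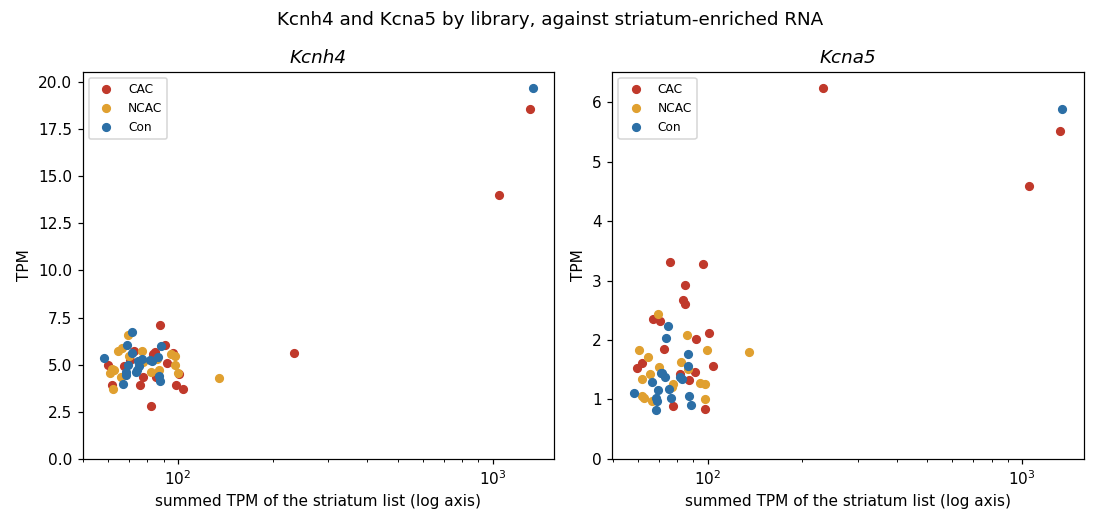
TPM of Kcnh4 and Kcna5 in each library against the summed TPM of 9 striatum-enriched genes on a log axis, coloured by group. The 3 libraries with sums of 1050 to 1340 TPM hold the highest Kcnh4 values, 14 to 19.7 TPM, and for Kcna5 a CAC library with a sum of 233 TPM is higher still at 6.24 TPM.

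Genes around the channels were counted from lists chosen with earlier results of these data known. Of 30 accessory and partner genes, 27 were tested, and at 8 wk in CAC against Con 4 rose and 1 fell, with a median of 0.16, beside 14.5% of all genes called. Those that rose were Kcnab2, a cytoplasmic Kv beta subunit (0.28 ± 0.07, adjusted p = 0.00988), the Kv4 partner Dpp6 (0.17 ± 0.05, 0.0275), the scaffold Dlg2 (0.22 ± 0.07, 0.0359) and the secreted Kv1 partner Lgi1 (0.21 ± 0.07, 0.0371). Kcnmb1, a beta subunit of BK channels, fell by 0.37 ± 0.13 (0.0432). Of 19 other potassium-carrying channels, pumps and transporters, 3 rose and 1 fell, with a median of 0.04. Among these the exchangers Slc24a2 and Slc24a4 rose by 0.29 ± 0.09 (adjusted p = 0.0266) and 0.28 ± 0.09 (0.0372), while the pacemaker channel gene Hcn3 fell by 0.31 ± 0.11 (0.0409). For both lists only the main fit is reported, without the alternative settings. Median-of-ratios scaling, voom and the removal of the GC and length trend each ended the higher channel calls of this comparison. Of the 4 channel genes left out by the rule, 0 passed in that comparison by limma, with a median of -0.28. That median is uncertain, since Kcne2 was at -0.87 ± 0.83 and Kcnj13 at -0.44 ± 0.89. At 2 wk Kcnj10 was called higher in CAC than in Con by limma (0.41 ± 0.12, adjusted p = 0.0456), in the comparison whose calls rested on single libraries. Between 8 and 2 wk in CAC, 1 of the 4 was called lower.

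Between CAC and NCAC, Kcnab2 was again higher at 8 wk (0.26 ± 0.07, adjusted p = 0.0432) and Hcn3 lower at 6 wk (-0.45, 0.0377), the only calls of the accessory and carrier lists in these comparisons at 2 to 8 wk. Between 8 and 2 wk in CAC, 2 accessory genes rose and 11 fell, with a median of -0.16, and 1 carrier rose and 6 fell, with a median of -0.11. In NCAC 2 accessory genes rose and 8 fell and no carrier passed, and in Con 1 of each list fell, beside 31%, 14% and 9.67% of all genes called in CAC, NCAC and Con.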

How the data were processed

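RNA was sequenced from hippocampus with the TruSeq stranded mRNA kit on a NovaSeq sequencer, per the labels' protocols. The authors deposited a table of TPM, 1 value per gene symbol and library, on genome build mm10 per the submitters' processing notes. For the aligner, the counting tool and the annotation: not given in the sources used here. Since TPM values of a library add to a constant, abundant genes that change shift the rest. Values were whole multiples of a step per gene and library, within 0.02 of a read, and whole reads were recovered for 24227 of 24227 symbols above 0 (100.00%), which gave the depth. The gene length was the GENCODE M21 exon union for 16272 symbols. For the rest it was the shortest length that gave whole reads, so their reads, and with them the depth, may be understated.

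The 15608 genes reaching 1 TPM in 4 or more libraries entered a fit of log2(TPM + 0.5), with a variance trend on mean level, by limma 3.58.1 (R 4.3.3). The 12 groups were fitted over all 60 libraries, and p-values were adjusted by Benjamini-Hochberg over all genes tested at 0.05. Differences on this scale understate the change of low genes. Shares of all genes called are those of this main fit unless another setting is named. Unless said otherwise, ± is the SD over libraries for TPM and the limma SE for differences, and a value beside a difference in parentheses is the limma adjusted p. The main fit was tested on simulated data for CAC against Con at 8 wk. That simulation held no GC or length trend and no RNA of other tissue, and the alternative settings were not tested on it. Channel genes named are those past the threshold (up to 15 in each direction), the 3 of smallest p in a comparison with none, and in each subfamily the most abundant and the one of smallest p at 8 wk in CAC against Con. Some genes that this rule names are not reported here. Members and lists were chosen with earlier results of these data known.

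Alternatives were pseudocounts of 0.1 and 1, a minimum of 5 TPM, no filter, median-of-ratios scaling, no variance trend, the compared groups alone, a replicate block, GC and length trends taken out (natural splines of 5 degrees of freedom, 15035 genes, gene models of GENCODE M21), libraries rich in other tissue left out (4), each library left out, and voom on the recovered reads. Libraries count as rich when a marker list's mean log2 lay more than 2 above the median library. Library slopes came from a linear fit on length and GC content together over the same genes, of log2 values centred on each gene's mean over all libraries. Promoters came from RefSeq (GRCm38.p6) and gene positions from GENCODE M21.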

Additional observations from a re-analysis of the deposited data

Results flagged for a closer look

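Single libraries stood far from the rest of their group in 5 of 123 sets of values at 8 wk, by the gap to the nearest library as a share of the range, a rule by which chance flags about 1 in 20 groups. In CAC, the erythrocyte-rich replicate 3 was lowest for the axonal Kv1 gene Kcna1, at 44.7 TPM with the next library at 52.6. CAC replicate 1 was highest for the sodium-activated Kcnt1, at 62.1 TPM with the next at 36.9. In NCAC, replicate 3 was lowest for the inward rectifier Kcnj16, at 23.7 TPM with the next at 30.6, and for the SK3 gene Kcnn3, at 9.55 TPM with the next at 11.6. In Con, replicate 2 was highest for the inward rectifier Kcnj2, at 11.2 TPM with the next at 6.96.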

How the results depend on the processing

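In CAC against Con at 8 wk, where 5 channel genes were called, median-of-ratios scaling and voom called 3 each, 2 of them shared with the 5 (Kcne1l, Kcnk13) and the third Kcng1. The replicate block called 3, of which 2 are shared, Kcnk2 (0.0352) and Kcne1l (0.0132), beside Kcng1, and Kcnk13 had an adjusted p of 0.0583. GC and length removal called 2, both shared (Kcne1l, Kcnk13), and with the block 2, of which 1 is shared (Kcne1l), beside Kcng1. The 8 calls without libraries rich in other tissue and the 11 from the compared groups alone held all 5. Leaving out each library gave 3 to 8, with 3 without CAC replicate 2 or Con replicate 1 or 3 and 8 without CAC replicate 3 or Con replicate 2. Over all genes these fits called 1034 (without CAC replicate 2) to 3070 (without CAC replicate 3), against 2256 with all libraries. The call in CAC against Con at 2 wk was lost (0) with no filter, median-of-ratios scaling, no variance trend, the block, GC and length removal with or without the block, the rich libraries left out, voom and the compared groups alone, and leaving out a library gave 0 to 4. At 4 wk median-of-ratios scaling gave 1 call, and leaving out a library 0 to 2. At 6 wk a pseudocount of 1, no variance trend, GC and length removal, the rich libraries left out and voom gave 1 each, and leaving out a library 0 to 1. In CAC against NCAC, the rich libraries left out gave 1 at 4 wk (0 to 1 with a library left out). At 6 wk the minimum of 5 TPM and no filter gave 1 and the compared groups alone 0 (0 to 1 with a library left out). At 8 wk no filter, the block, and GC and length removal with the block gave 0, median-of-ratios scaling, GC and length removal and voom 2, and the rich libraries left out 5 (0 to 4 with a library left out), while the compared groups alone called 1, Kcna4 and not Kcnk13. For the CAC-NCAC change, median-of-ratios scaling, GC and length removal and voom gave 1 (0 to 1 with a library left out). Between 8 and 2 wk in CAC, the block gave 13, GC and length removal 10 (7 shared with the 21 called), with the block 3, and the compared groups alone 13 (13 to 20 with a library left out). In NCAC these were 1 for GC and length removal, 2 with the block and 2 for the compared groups alone (0 to 12). In Con, no filter gave 4, GC and length removal 1 with or without the block, and the compared groups alone 15 (1 to 9). Over all genes, leaving out a library gave 2 to 1279 calls in CAC against Con at 2 wk. At 4 and 6 wk it gave 0 to 590 and 9 to 85. In CAC against NCAC it gave 0 to 180 at 4 wk, 43 to 367 at 6 wk and 72 to 714 at 8 wk. Between 8 and 2 wk it gave 3152 to 5133 in CAC, 1 to 2467 in NCAC and 173 to 2546 in Con. All-gene counts are not repeated here for every other setting, so a channel count alone is no result about these genes. In the CAC change from 2 to 8 wk, the sign of Kcna2 and Kcng2 reversed. With GC and length removed, Kcna2 was at 0.02 and Kcng2 at -0.03. With the block added, Kcna2 was at 0.02 and Kcng2 at -0.08. For these changes the cause was not tested beyond what each setting itself alters. In 0 of 12 comparisons did every pair of libraries with the same replicate number correlate above 0.1, with values from -0.28 to 0.35. Up to 2 pairs in a comparison did exceed 0.1. Since the rule asks this of every pair, it cannot exclude a pairing or a batch shared by some libraries. Counting error alone, from recovered reads taken as Poisson, gave a log2 SD of 0.259 for Kcna3 at a mean of 31 reads per library, against 0.435 between libraries of a group, and of 0.181 for Kcnh6 at 64 reads, against 0.216.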
